A study of Mus musculus with 48 samples.

Results

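The libraries described here measured what exposure to dihydrotestosterone (DHT) before birth left behind in the preoptic area of prepubertal female mice. They are the 12 young supernatant libraries of a series of 48, chosen by their labels of fraction, age and prenatal treatment: 6 from mice exposed to DHT and 6 from mice given vehicle. The mice of both groups carried Cre in GnRH neurons and a floxed-stop GFP fusion of ribosomal protein L10a, so that ribosomes of GnRH neurons could be pulled down through the GFP. The supernatant is the RNA of the tissue punch that remained after that pull-down. It holds all other cells of the preoptic area and not one cell type. Adult supernatant (6 DHT and 5 vehicle libraries, same alleles, females in diestrus) and the young pull-down libraries (6 and 6, same cross and treatments) serve below only as comparisons. Replicates carry the word biological in the labels, with nothing on whether a library came from 1 animal or several, and p-values cover the spread between libraries only.

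The preoptic area lies in front of the hypothalamus and contains the cell bodies of GnRH neurons, which release gonadotropin-releasing hormone and so drive the pituitary and the ovary. DHT is a potent androgen that cannot be turned into estrogen. In rodents and primates, androgen exposure before birth leads to adult female features that resemble polycystic ovary syndrome, with altered steroid feedback on GnRH neurons. That feedback reaches GnRH neurons mainly through other neurons, which release GABA, glutamate, kisspeptin, neurokinin B and dynorphin, and those cells are sampled by the supernatant.

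The 12 libraries held between 28136004 and 47974750 counts each, and levels are given as CPM, counts scaled to the library total. Preoptic neuron markers were present in every library (17 of 17 tested, summed level 749 to 899 CPM), and the pituitary genes Prl, Fshb and Pou1f1 were at 0 in all 12. The series describes female mice, while the labels also speak of collection from both sexes. The Y-linked genes Uty, Kdm5d and Eif2s3y were at 0 in all 12, and Ddx3y, also Y-linked, was at 0 in all but DHT 5 (0.058 CPM). The sample numbers in the labels fall into 2 ranges, and the higher range is called late here: DHT 4, 5 and 6 and vehicle 5 and 6. The early numbers hold DHT 1, 2 and 3 and vehicle 1 to 4. The labels do not say what the ranges stand for, and each test carried a term for them.

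No gene differed between DHT and vehicle young supernatant at an adjusted p below 0.05 in edgeR (0 of 16286 tested, 0%; smallest adjusted p 0.997). At an unadjusted p below 0.05, 689 genes (4.23%) differed in edgeR, where 814.3 would be expected if no gene did, 445 of them higher (2.73%) and 244 lower (1.5%) after DHT. DESeq2 called 1 gene, the pseudogene Apoo-ps, at an extreme log2 fold change of -24.1, and limma-voom called 0. The unadjusted count was 366 without DHT 3, 1164 without DHT 4 and 1524 without vehicle 6. The median absolute log2 fold change over all genes was 0.09. Differences of moderate size were within reach of these libraries: for 11833 of 16286 genes (72.7%) the 95% interval of the fold change stayed within 1.5-fold in both directions. Among genes with a mean of at least 10 CPM, 9362 of 9650 (97.0%) did so, while of 2307 genes under 1 CPM only 39 did. For 1 effect taken over both number ranges, most genes of the preoptic supernatant were thus bounded to less than 1.5-fold, and rare transcripts were not. Effects of opposite sign in the 2 ranges can cancel in it. Within the early numbers alone 58.6% of genes were bounded in this way, and within the late numbers alone 56.9%.

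The genes named next were those of smallest unadjusted p whose mean reached 1 CPM in DHT or in vehicle, and none passed the adjusted threshold (edgeR adjusted p = 0.997 for each). Stk10, a serine/threonine kinase of lymphocytes and other cells, ranged from 2.86 CPM through a median of 3.19 to 4.49 CPM after DHT. In vehicle it ranged from 1.58 through 2.04 to 2.56 CPM. Each DHT library thus lay above each vehicle library, with a log2 fold change of 0.68 ± 0.17 (SE; unadjusted p = 0.00062). It was of similar size within the early numbers (0.62) and within the late numbers (0.75).

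Rtel1, a helicase that protects telomeres, was also higher in each DHT library than in any vehicle library. Its levels were 8.03 to 10.8 CPM after DHT (median 9.28) and 5.78 to 7.32 CPM in vehicle (median 7.04), a log2 fold change of 0.39 ± 0.11. Gabrg3, a gamma subunit of the GABA-A receptor, had 4.90, 7.21 and 8.34 CPM as lowest, median and highest level after DHT, against 3.50, 4.54 and 6.17 CPM in vehicle. The groups overlapped, and the log2 fold change was 0.53 ± 0.14, with 0.56 in the early and 0.48 in the late numbers. Oasl2, an interferon-induced gene, had the same order of groups with overlap, from 4.15 to 8.93 CPM (median 6.51) after DHT and from 2.58 to 5.81 CPM (median 3.76) in vehicle. Its log2 fold change was 0.75 ± 0.21, and 1.27 within the late against 0.39 within the early numbers (unadjusted p of that difference 0.031, adjusted p = 0.472 in edgeR). The other higher genes of this rank were Mmp17 (a membrane-anchored matrix metalloprotease, 0.37), Mcm8 (a DNA helicase, 0.76), Abcb10 (a mitochondrial transporter, 0.34), Pdia5 (a protein disulfide isomerase, 0.59), Smpd3 (a neutral sphingomyelinase, 0.46) and Lrrtm3 (a synaptic adhesion protein, 0.34), all as log2 fold changes.

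On the lower side, Oas1c, of the oligoadenylate synthetase family, ranged from 1.63 through 1.88 to 2.11 CPM after DHT and from 2.63 through 3.04 to 3.61 CPM in vehicle. No DHT library reached the lowest vehicle library, and the log2 fold change was -0.73 ± 0.18 (unadjusted p = 0.00034), with -0.65 in the early and -0.85 in the late numbers. Midn, which encodes midnolin, a protein that guides nuclear proteins to the proteasome, separated the groups in the same way, with 1.25 to 2.31 CPM after DHT (median 1.88) and 2.48 to 3.26 CPM in vehicle (median 2.85). Its log2 fold change was -0.62 ± 0.16. Among abundant transcripts, Gnb1, a beta subunit of heterotrimeric G proteins, had a mean of 701 ± 145 CPM after DHT and 889 ± 125 CPM in vehicle (SD over 6 libraries each), a log2 fold change of -0.33 ± 0.09, and the groups overlapped. Luzp1 (a cytoskeletal protein, -0.26), Tmsb15b2 (a thymosin beta, -0.71), Ogdhl (a brain form of the oxoglutarate dehydrogenase subunit, -0.47), Chd5 (a neuronal chromatin remodeller, -0.28), Zfp691 (a zinc finger protein, -0.60), Ier5 (an immediate early response gene, -0.33) and Zc3h4 (a restrictor of noncoding transcription, -0.30) completed the 10, as log2 fold changes. Gnb1, Chd5, Luzp1 and Zc3h4 were also called lower in the late than in the early numbers (log2 -0.29, -0.45, -0.19 and -0.27, edgeR adjusted p = 0.0197, 0.000371, 0.0355 and 0.0361), and the part of that in their DHT values, beyond the term in the fit, was not tested.

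Over all 16286 genes, 14 (0.086%) had each DHT library above each vehicle library and 7 (0.043%) had each below. Among this many genes such separation also arises with no effect of treatment, and neither count was tested against that. The first set held Cyp19a1, Stk10, Rtel1, Cxcl11, Itga5, Bco2, Kcnd1, Map4k1, Pcdha5, Pfas, Ybey and Zfp239, and the second Oas1c, Midn, Gnmt, Hist1h4d, Otx2 and Speer4b, beside genes without an established name. Those beyond Stk10, Rtel1, Oas1c, Midn and Cyp19a1 were taken from this count after their values were seen.

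**Figure D1:**
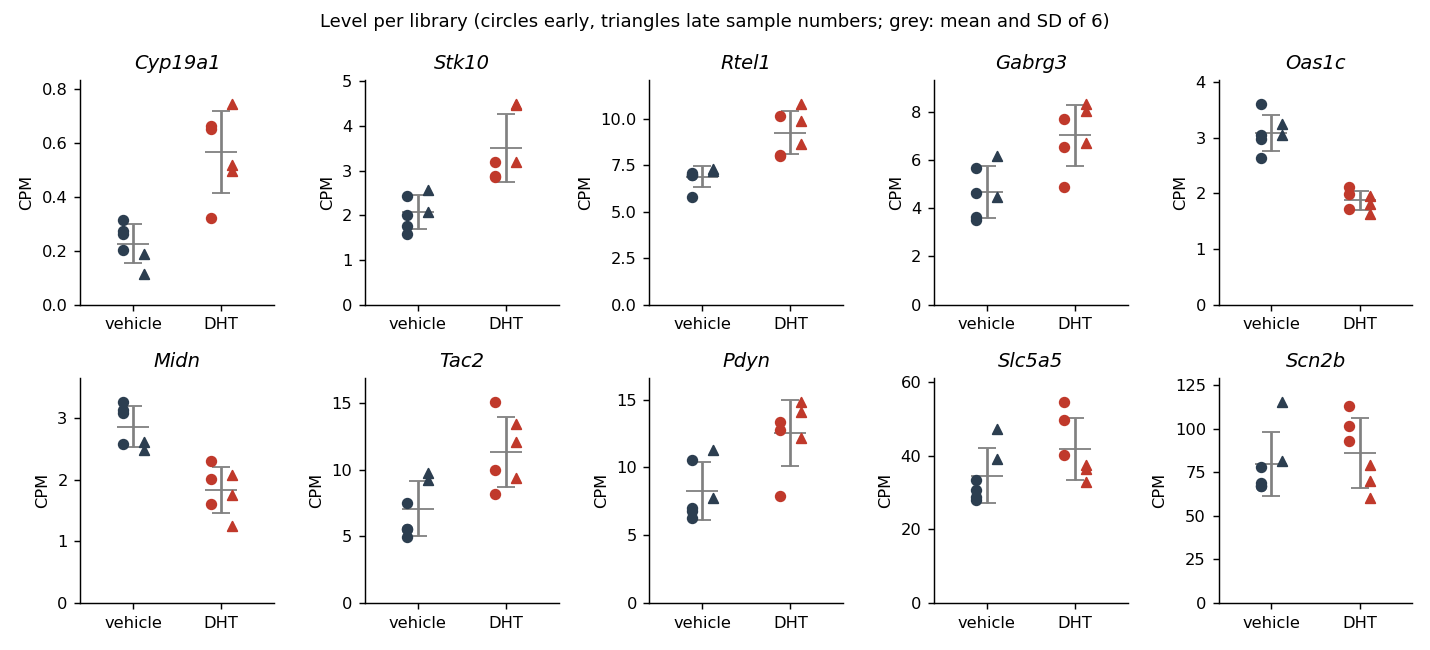
Level of 10 genes (CPM, linear axis from 0) in each vehicle and DHT young supernatant library; circles are early and triangles late sample numbers, and the grey bar is the mean with its SD over 6 libraries. The groups separate for Cyp19a1, Stk10, Rtel1, Oas1c and Midn, overlap for Gabrg3, Tac2 and Pdyn, and for Slc5a5 and Scn2b the order of the groups differs between circles and triangles.

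Cyp19a1 encodes aromatase, which turns testosterone into estradiol in preoptic neurons and is itself known as a target of androgen in this tissue. It was rare, with 0.322, 0.585 and 0.746 CPM as lowest, median and highest level after DHT and 0.115, 0.234 and 0.315 CPM in vehicle. All DHT libraries lay above all vehicle libraries, narrowly at the boundary. The log2 fold change was 1.35 ± 0.32 (95% interval 0.69 to 2.02; unadjusted p = 0.000304; edgeR adjusted p = 0.997). It was 1.05 ± 0.40 within the early and 1.86 ± 0.53 within the late numbers, and between 1.20 and 1.55 when any 1 of the 12 libraries was left out. In adult supernatant the same contrast was 0.23 ± 0.32, and the difference between the ages was 1.13 (unadjusted p = 0.019, edgeR adjusted p = 0.840).

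The promoters of the 20 leading genes and of Cyp19a1 were searched for the androgen response element, the DNA site of androgen action, which consists of 2 copies of a short arm. RefSeq (GRCm38.p6) windows from 250 bases before to 50 bases after each start were found for 19 of these 21 genes; Mmp17 and Smpd3 had no entry. The full element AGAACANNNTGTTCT was in 0 of their 24 windows and in 3 of 32851 windows of all genes (0.00913%). A single arm, AGAACA on either strand (TGTTCT on the other), was in 4 of 24 windows (16.7%), belonging to Chd5, Oasl2 and Tmsb15b2, against 19.0% of all windows. A match describes letters only, and no match says only that these letters are not in the window. The windows of Cyp19a1, at its 3 annotated starts, are shown because the groups did not overlap for this gene, and those of Oasl2 and Tmsb15b2 because they carry the arm, in capitals. They are written 5′ to 3′ on the gene's strand.
Cyp19a1 promoter, chr9:54193694-54193993, minus strand: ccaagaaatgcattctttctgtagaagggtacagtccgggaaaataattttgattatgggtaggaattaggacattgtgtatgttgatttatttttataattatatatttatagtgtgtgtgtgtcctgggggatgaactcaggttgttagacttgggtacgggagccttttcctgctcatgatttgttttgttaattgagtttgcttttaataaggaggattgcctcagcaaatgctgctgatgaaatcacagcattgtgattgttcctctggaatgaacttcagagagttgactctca
Cyp19a1 promoter, chr9:54228865-54229164, minus strand: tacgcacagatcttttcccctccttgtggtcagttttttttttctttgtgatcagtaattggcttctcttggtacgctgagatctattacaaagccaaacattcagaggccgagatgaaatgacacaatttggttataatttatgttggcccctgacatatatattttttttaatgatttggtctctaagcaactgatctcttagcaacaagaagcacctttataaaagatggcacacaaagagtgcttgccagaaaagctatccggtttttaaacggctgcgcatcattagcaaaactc
Cyp19a1 promoter, chr9:54268115-54268414, minus strand: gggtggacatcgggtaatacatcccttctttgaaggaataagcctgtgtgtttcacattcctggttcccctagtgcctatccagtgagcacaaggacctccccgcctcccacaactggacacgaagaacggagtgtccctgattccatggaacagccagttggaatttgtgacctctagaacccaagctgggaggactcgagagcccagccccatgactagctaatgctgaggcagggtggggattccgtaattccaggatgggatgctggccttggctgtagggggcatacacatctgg
Oasl2 promoter, chr5:114896684-114896983, plus strand: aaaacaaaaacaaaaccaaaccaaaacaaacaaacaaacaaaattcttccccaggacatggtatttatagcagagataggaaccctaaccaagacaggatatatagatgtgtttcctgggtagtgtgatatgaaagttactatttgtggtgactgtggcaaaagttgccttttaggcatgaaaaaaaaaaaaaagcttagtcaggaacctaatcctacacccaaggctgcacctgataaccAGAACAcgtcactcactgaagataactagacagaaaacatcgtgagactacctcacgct
Tmsb15b2 promoter, chrX:136957930-136958229, minus strand: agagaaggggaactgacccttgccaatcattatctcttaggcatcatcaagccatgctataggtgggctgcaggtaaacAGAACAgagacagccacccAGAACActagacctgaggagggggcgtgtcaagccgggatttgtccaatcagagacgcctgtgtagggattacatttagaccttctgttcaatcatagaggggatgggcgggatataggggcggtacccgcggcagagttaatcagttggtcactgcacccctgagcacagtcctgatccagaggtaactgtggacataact
The arm occurs once in the Oasl2 window and at 2 places in that of Tmsb15b2, whose levels were on opposite sides of vehicle, and it is not in any of the 3 Cyp19a1 windows.

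No steroid receptor named here passed the test. Esr1, estrogen receptor alpha, had 8.18, 13.7 and 19.2 CPM after DHT and 10.2, 13.1 and 18.3 CPM in vehicle (lowest, median and highest). The vehicle range lay inside that of DHT, and the log2 fold change was 0.07 (95% interval -0.30 to 0.43). For Pgr, the progesterone receptor, it was 0.06 (-0.09 to 0.21). The Pgr interval is narrow enough to bound any change to well under 1.5-fold, whereas that of Esr2, estrogen receptor beta at about 1 CPM, ran from -0.79 to 0.38. Of 14 tested steroid and nuclear receptors, 0 had an unadjusted p below 0.05, beside 4.23% of all genes. Their median log2 fold change was -0.01 beside -0.004 for all genes. The sign of Esr1 turned negative (-0.007) without the late term.

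At an unadjusted p below 0.05, 2.73% of all genes were higher and 1.5% lower. Among 14 tested enzymes of steroid synthesis and metabolism, 1 was higher (Cyp19a1) and 1 lower. The lower one was Star, which carries cholesterol into mitochondria, with 1.81, 3.01 and 4.19 CPM after DHT and 3.49, 4.06 and 5.16 CPM in vehicle (log2 -0.42 ± 0.17, unadjusted p = 0.0169). The groups overlapped. Srd5a1, the steroid 5-alpha-reductase of brain that makes DHT from testosterone, had a log2 fold change of 0.11 (95% interval -0.14 to 0.35). Of 19 tested genes that respond to androgen in other tissues, 0 were higher and 1 was lower, beside the same shares of all genes. That gene was Zbtb16, a zinc finger transcription factor, at 4.76 ± 1.56 CPM after DHT and 7.95 ± 3.68 CPM in vehicle (log2 -0.51 ± 0.23). Zbtb16 was also called lower in late than in early numbers (log2 -1.12, edgeR adjusted p = 0.00146), and its part in the DHT value, beyond the term in the fit, was not tested.

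Genes of the kisspeptin, neurokinin B and GnRH circuit had a median log2 fold change of 0.21 over 14 tested members, beside -0.004 for all genes. At an unadjusted p below 0.05, 3 were higher and 0 lower, beside 2.73% and 1.5% of all genes. The median had opposite signs in the number ranges: 0.43 in the early numbers with 5 higher and 1 lower, and -0.10 in the late ones with 0 higher and 1 lower. Of all genes, 8% were higher and 2.55% lower in the early numbers, and 1.5% and 1.38% in the late ones. Tac2, which encodes neurokinin B, an exciter of kisspeptin neurons, had 8.13, 11.01 and 15.05 CPM after DHT and 4.92, 6.52 and 9.71 CPM in vehicle. The ranges overlapped, with a log2 fold change of 0.64 ± 0.22 (unadjusted p = 0.00746), of 0.93 within the early and 0.25 within the late numbers. Pdyn, which encodes dynorphin, an inhibitory opioid peptide, had 7.92, 13.1 and 14.8 CPM after DHT and 6.24, 7.36 and 11.3 CPM in vehicle. Only the lowest DHT library lay inside the vehicle range, and the log2 fold change was 0.54 ± 0.18 (0.59 early, 0.48 late). Oprk1, the receptor for dynorphin, was the third (0.27 ± 0.13, unadjusted p = 0.0468). Without vehicle 6 the count was 5 and the median 0.35, and without DHT 3 the median was 0.09.

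Kiss1, which encodes kisspeptin, ranged from 2.79 to 8.72 CPM after DHT and from 2.103 to 5.38 CPM in vehicle, with a log2 fold change of 0.37 ± 0.39. The 2 number ranges disagreed in sign for it (1.00 early, -0.57 late), and the difference did not pass (unadjusted p = 0.046, edgeR adjusted p = 0.530). Gal, which encodes galanin and marks a large set of preoptic neurons, showed the same split: 0.66 early, -0.16 late and 0.32 overall. Gnrh1 remained detectable in the depleted fraction at 19.9 to 40.2 CPM, with a log2 fold change of 0.05 (95% interval -0.32 to 0.42), and Kiss1r, the kisspeptin receptor, had 0.07 (-0.15 to 0.30). In a bulk sample, a lower or higher level can reflect fewer or more cells of a type or a different amount of RNA per cell, and these cannot be told apart.

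**Figure D2:**
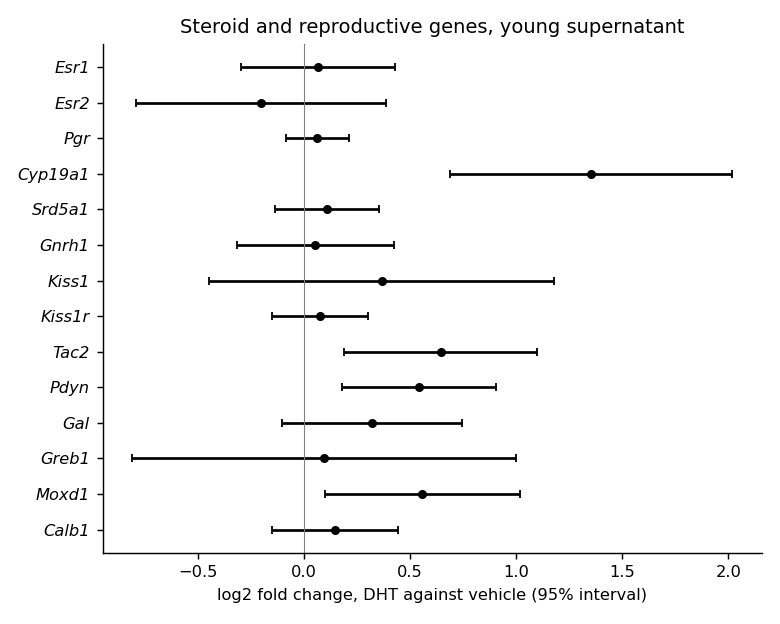
Log2 fold change of DHT against vehicle in young supernatant for 14 steroid and reproductive genes, from edgeR with the term for late sample numbers; bars are 95% intervals. The interval of Cyp19a1 (0.69 to 2.02) lies above 0, as do those of Tac2, Pdyn and Moxd1, and the intervals of Esr1, Pgr and Gnrh1 lie on both sides of 0. The intervals are not adjusted for the number of genes tested, and no gene had an edgeR adjusted p below 0.05.

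Genes known to be sexually dimorphic in the preoptic area or its neighbours held 3 higher and 0 lower members of 22 tested at an unadjusted p below 0.05 (2.73% and 1.5% of all genes), with a median log2 fold change of 0.15. The median was 0.33 in the early numbers, where 7 were higher and 0 lower, and -0.12 in the late ones, with 2 and 0. The shares of all genes were 8% and 2.55% early, and 1.5% and 1.38% late. The 3 that were higher over all 12 libraries were Cyp19a1, Nts and Moxd1. Nts, which encodes neurotensin, had a log2 fold change of 0.36 ± 0.14. Moxd1, a monooxygenase that marks the male-biased sexually dimorphic nucleus, had 3.44, 4.805 and 8.38 CPM after DHT and 2.23, 3.44 and 4.32 CPM in vehicle, with overlap. Its log2 fold change was 0.56 ± 0.22 (unadjusted p = 0.0196), with 0.55 early and 0.56 late, and was 0.28 without DHT 3, its highest library. Calb1, another marker of that nucleus, had 0.15 ± 0.14. The count of higher members of the list was 1 without DHT 3 and 7 without vehicle 6, with a median of 0.27 in the latter case.

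Neuropeptide precursors as a whole had 5 higher and 0 lower of 29 tested, beside 2.73% and 1.5% of all genes, with a median of 0.21. It was 0.34 in the early numbers (5 higher and 0 lower, beside 8% and 2.55% of all genes). In the late ones it was 0.02 (0 and 1, beside 1.5% and 1.38%). Penk, the enkephalin precursor, was the most abundant of those named, with a mean of 277 ± 50.04 CPM after DHT and 200 ± 45.5 CPM in vehicle (log2 0.41 ± 0.17). Markers of striatum and septum neurons, regions beside the preoptic area, were also at a higher median with DHT, with a summed level of 1150 to 1779 CPM (median 1511) against 907 to 2056 CPM (median 1068) in vehicle. That list includes Penk itself and Tac1, another neuropeptide precursor, and the part of such neurons in the Penk value was not tested. The count of higher neuropeptide genes was 1 without DHT 2 or without DHT 3, and 2 without vehicle 2 or without vehicle 5. Their median ran from 0.09 without vehicle 5 to 0.32 without DHT 1.

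The GABA system, one of the inputs to GnRH neurons, had a median log2 fold change of 0.18 over 25 tested genes. At an unadjusted p below 0.05, 8 were higher and 0 lower, beside 2.73% and 1.5% of all genes. Besides Gabrg3 these included the GABA-A receptor subunits Gabra2 (0.38 ± 0.15) and Gabra5 (0.23 ± 0.09). Gabra5 had 32.6, 39.8 and 42.7 CPM after DHT and 28.9, 32.5 and 36.4 CPM in vehicle, overlapping. The values differed between the number ranges: within the early numbers 16 of 25 were higher and 0 lower (median 0.37, beside 8% of all genes higher and 2.55% lower), and within the late numbers 3 were higher and 3 lower (median -0.14, beside 1.5% and 1.38%). Without DHT 3 the count of higher genes over all 12 libraries was 1 and the median 0.08, without vehicle 2 or vehicle 5 it was 4, and without vehicle 6 it was 14 with a median of 0.29. The count therefore rested on single libraries of both groups.

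Glutamate receptors and transporters had 7 higher and 0 lower of 30 (2.73% and 1.5% of all genes), with a median of 0.19. The smallest p belonged to Grm7, a presynaptic metabotropic receptor (0.32 ± 0.11), Gria1, an AMPA receptor subunit (0.22 ± 0.08), and Grik1, a kainate receptor subunit (0.35 ± 0.13). Gria1 had 101, 115 and 131 CPM after DHT and 84.9, 94.2 and 128 CPM in vehicle, the last from vehicle 6, which stood apart from the other 5. The early median was 0.29 and the late one 0.06. Without DHT 3 the count was 1 and the median 0.10, without DHT 2, vehicle 1 or vehicle 2 the count was 4, and without vehicle 6 the count was 12 and the median 0.26. Sodium, calcium and HCN channels (4 higher and 0 lower of 29, median 0.10) and potassium channels (2 and 0 of 27, median 0.08) had smaller values over all 12 libraries. In the early numbers they had 11 and 9 higher and 0 lower (medians 0.27 and 0.21), beside 8% and 2.55% of all genes. Their late medians were -0.11 and -0.07.

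**Figure D3:**
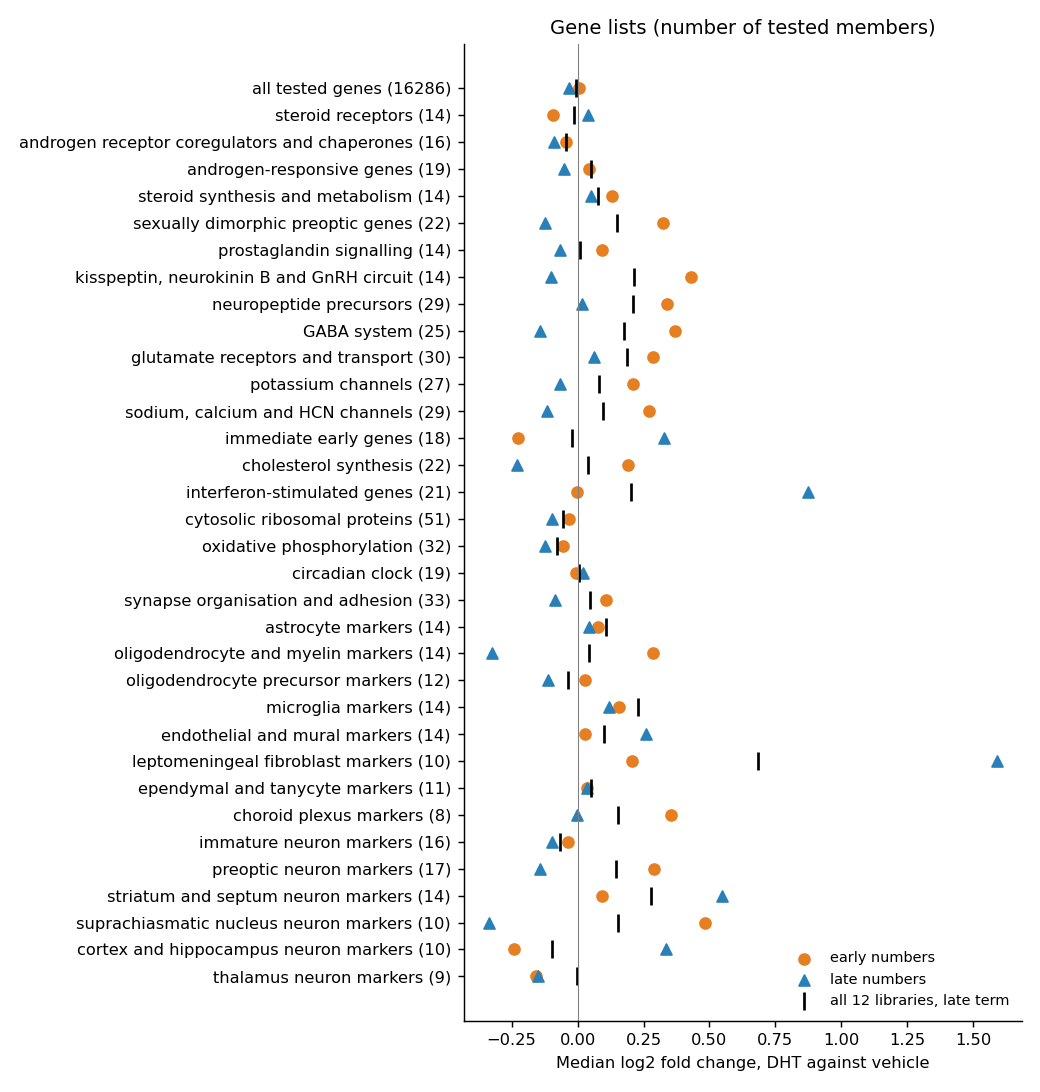
Median log2 fold change of DHT against vehicle over the tested members of each list (number in parentheses), within the early numbers (circles), within the late numbers (triangles) and over all 12 libraries (bars). The GABA list sits at 0.37 in the early and -0.14 in the late numbers and the interferon list at 0.00 and 0.87, while all tested genes sit at 0.00 and -0.03.

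Interferon-stimulated genes held 3 higher and 1 lower of 21 tested, beside 2.73% and 1.5% of all genes, with a median of 0.20. The median was 0.87 in the late numbers, with 5 higher and 1 lower (1.5% and 1.38% of all genes). It was 0.00 in the early ones, with 1 and 1 (8% and 2.55% of all genes). Leptomeningeal fibroblast markers had a late median of 1.59 and an early one of 0.21. Their summed level in the late libraries was 193, 170 and 65.8 CPM in DHT 4, 5 and 6 against 50.5 and 54.1 CPM in vehicle 5 and 6, and their part in the interferon values was not tested. The list thus held values of both signs, with Oas1c the lower one and Oasl2 among the higher.

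Markers of other cell types were set beside these lists. Microglia markers had a summed level of 66.8 to 138 CPM after DHT and 63.8 to 124 CPM in vehicle. At an unadjusted p below 0.05, 2 of 14 were higher and 0 lower, beside 2.73% and 1.5% of all genes. They included Ctss, a lysosomal protease (0.44 ± 0.21). Astrocyte markers had 0 of 14, with summed levels of 1571 to 2039 and 1492 to 1839 CPM. Oligodendrocyte markers also had 0 of 14, with a median log2 fold change of 0.28 in the early and -0.32 in the late numbers. Preoptic (0.29 and -0.14), suprachiasmatic (0.48 and -0.34) and magnocellular neuron markers (0.45 and -0.45) also changed sign between the ranges. Cortex and hippocampus markers did so in the other direction (-0.24 and 0.34). Immature neuron (-0.04 and -0.10) and thalamus markers (-0.16 and -0.15) did not. Leptomeningeal fibroblast markers had the largest median of the marker lists, 0.69 with 0 of 10 below the threshold, and a summed level of 37.2 to 211 CPM after DHT and 50.5 to 138 CPM in vehicle. Striatum and septum neuron markers had 1 higher (Penk) and 0 lower of 14, with a median of 0.28. In the late libraries their summed level was 1779, 1665 and 1614 CPM in DHT 4, 5 and 6 and 992 and 914 CPM in vehicle 5 and 6 (median log2 0.55), so the groups did not overlap there. In the early libraries it was 1150 to 1409 CPM after DHT and 907 to 2056 CPM in vehicle (median 0.09). The part of these cells in the values above was not tested.

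Libraries also differed in markers of neighbouring regions, chosen here after their values were seen. Nr5a1, a marker of the ventromedial hypothalamus, was at 10.4 CPM in DHT 5, 2.35 CPM in DHT 6 and at most 0.63 CPM in the other 10. Hcrt and Pmch, markers of the lateral hypothalamus, were also highest in DHT 5 (4.35 and 3.69 CPM). Slc17a7, of cortical excitatory neurons, was at 91.8 CPM in DHT 4, 62.7 in vehicle 2 and 50.2 in vehicle 4, against 1.46 to 15.5 CPM in the other 9. Avp and Oxt, of magnocellular neurons, were highest in vehicle 6 (319 and 367 CPM). The highest levels of these genes were in single libraries of either treatment, and their part in the results was not tested.

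Far more genes were called between the ranges of sample numbers than between the treatments. Late and early numbers differed in 3801 of 16286 genes in edgeR (23.3%), 1218 higher (7.48%) and 2583 lower (15.9%) in late. The balance of the directions depended on the scaling, with 1624 higher and 2170 lower under RLE size factors. Of the 3801, 560 differed by at least 1.5-fold and 66 by at least 2-fold. The first principal component held 20.8% of the variance and placed the 5 late libraries above all early ones, whereas DHT and vehicle were interleaved along it.

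**Figure D4:**
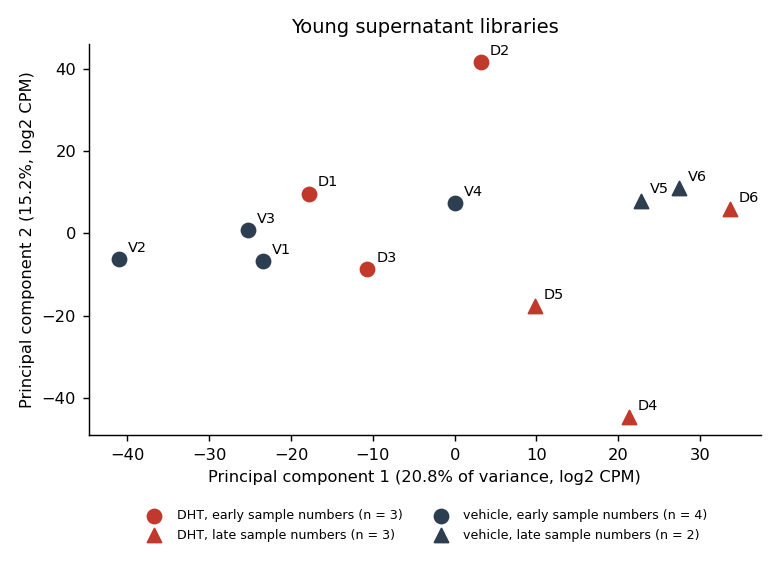
The 12 young supernatant libraries on the first 2 principal components of log2 CPM (20.8% and 15.2% of the variance); D and V with a number are DHT and vehicle replicates, circles early and triangles late sample numbers. The late libraries lie to the right of all early ones, and DHT 2 and DHT 4 lie at the ends of the second axis.

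Between the ranges, 7.48% of all genes were called higher and 15.9% lower in late. By lists, 28 of 51 cytosolic ribosomal protein genes were called higher and 0 lower in the late numbers (median log2 0.25, beside -0.007 for all genes), and 8 of 14 microglia markers were higher and 0 lower (0.59). Of 32 oxidative phosphorylation genes, 14 were higher and 6 lower, and of 19 circadian clock genes 0 were higher and 10 lower (median -0.26). The genes named for this comparison were taken after the values were seen, by smallest p. Fem1b, an adaptor of a ubiquitin ligase, was lower in late by 0.84 on the log2 scale in edgeR (-0.84 ± 0.08, adjusted p = 4.14e-06). Eef1b2, a translation elongation factor, was higher by 0.51 ± 0.08 (adjusted p = 0.00016). Genes lower in late had longer transcripts (median 4519 bases of the longest annotated transcript, for the 2404 with a length) than genes higher in late (1941 bases, 1045 genes) or not called (3150 bases). Xist, the X-inactivation transcript, was at 0.70 to 2.73 CPM in early and 3.41 to 7.44 CPM in late libraries, with no overlap, as for 4.96% of genes.

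Within the early numbers (3 DHT and 4 vehicle libraries), 1 gene was called in edgeR (0.00614%, higher), Slc5a5, and within the late numbers (3 and 2) none. The difference between the 2 effects was called for 2 genes (0.0123%, both more positive in early), with 1503 (9.23%) at an unadjusted p below 0.05. At an unadjusted p below 0.05 there were 1719 early (10.6%, 1303 higher and 416 lower) and 469 late (2.88%, 245 and 224). DESeq2 called 193 early (180 higher and 13 lower) and 3 late, and limma-voom 2 early and 0 late. The early count was 39 in a fit of only the 18 supernatant libraries with early numbers, 0 in the 12 or the 7 young libraries alone, 260 without vehicle 3 and 145 without DHT 1. It was 0 without vehicle 1, without vehicle 2 and without DHT 3.

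Slc5a5, the sodium iodide symporter, was at 40.0, 54.5 and 49.6 CPM in DHT 1, 2 and 3, against 30.7, 27.9, 28.7 and 33.4 CPM in vehicle 1 to 4. All early DHT libraries lay above all early vehicle libraries, as for 4.45% of genes (log2 0.68 ± 0.10, edgeR adjusted p = 0.00915). In the late numbers the order was the opposite: 37.3, 32.7 and 36.4 CPM in DHT 4, 5 and 6, and 47.2 and 39.1 CPM in vehicle 5 and 6 (log2 -0.33 ± 0.12). The difference of the effects was 1.01 (adjusted p = 0.0196), and over all 12 libraries the log2 fold change was 0.26 ± 0.13. The adjusted p of the early value rose to 0.0596 without vehicle 1, 0.111 without vehicle 2, 0.121 without DHT 2, 0.113 without DHT 3 and 0.349 in the 12 young libraries alone, and that of the difference to between 0.0593 and 0.133 over the 8 libraries whose omission ended its call and to 0.398 in the 12 alone.

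Scn2b, an auxiliary subunit of voltage-gated sodium channels, was the other gene whose DHT effect differed between the ranges. Its levels were 92.8, 102 and 113 CPM in DHT 1, 2 and 3 and 67.2 to 78.0 CPM in vehicle 1 to 4. They were 60.2 to 79.3 CPM in DHT 4, 5 and 6 and 81.7 and 115 CPM in vehicle 5 and 6. The log2 fold change was 0.55 early and -0.54 late, a difference of 1.10 (edgeR adjusted p = 0.0329), which lost its call without any of 8 libraries and was 0.83 (adjusted p = 0.9998) without vehicle 6.

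The higher genes of the next smallest p in the early numbers were Ssr1 (translocon-associated protein, 0.58), Dnajc10 (a reductase chaperone, 0.70) and Erlin2 (a scaffold of the endoplasmic reticulum membrane, 0.70), Pcdhb21 (a protocadherin, 1.72) and Sc5d (an enzyme of cholesterol synthesis, 0.86). All had an edgeR adjusted p of 0.0675. Their late values were -0.20, -0.24, -0.14, -0.18 and -0.35, so each was on the other side of vehicle there. Of the 6 named on the lower side, Gtpbp3 (a mitochondrial tRNA-modifying enzyme, -0.45), Plvap (of endothelial diaphragms, -0.61), Ocel1 (-0.82) and Cdk5r2 (an activator of Cdk5, -0.44) had late values of 0.14, 0.18, 0.57 and 0.07, while Ogdhl (-0.63) and Ier5 (-0.52) had late values of the same sign, -0.24 and -0.07. Gtpbp3 and Plvap overlap at one end on the genome, and without strand the reads in the shared stretch cannot be told apart.

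Cholesterol synthesis as a list had 6 higher and 1 lower of 22 in the early numbers (median 0.19, beside 8% of all genes higher and 2.55% lower) and 0 higher and 5 lower in the late ones (-0.23, beside 1.5% and 1.38%). Immediate early genes had 0 higher and 3 lower of 18 in the early numbers (median -0.23) and 4 higher and 0 lower in the late ones (0.33), beside the same shares of all genes. Of the 1719 genes with an unadjusted p below 0.05 in the early numbers, 454 had the same sign in the late numbers. The share with the same sign over all tested genes was not counted. For 76 genes the unadjusted p was below 0.05 in both, where 2.88% of all genes were below it in the late numbers. Of these 76, 15 had the same sign in both and the rest had opposite signs. The early and late comparisons share no library.

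**Figure D5:**
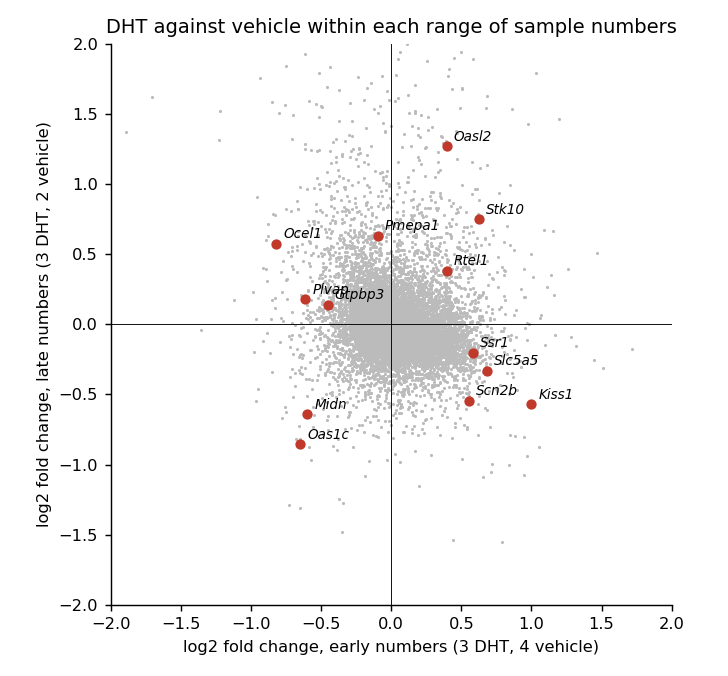
Log2 fold change of DHT against vehicle within the early numbers (x axis, 3 DHT and 4 vehicle libraries) and within the late numbers (y axis, 3 and 2) for 14064 genes whose mean reached 1 CPM in DHT or in vehicle; 39 genes beyond 2 on either axis are not shown. Stk10, Rtel1, Oasl2, Oas1c and Midn lie on the same side in both, and Slc5a5, Scn2b, Ssr1, Kiss1 and Ocel1 lie on opposite sides.

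Compared with adult supernatant, the DHT effect in young supernatant differed for 0 genes in edgeR (958 or 5.88% at an unadjusted p below 0.05, and 0 by limma-voom), and adult supernatant itself had 0 called (484 or 2.97% unadjusted). The difference with the largest positive size among the smallest p was Tac2, with 0.64 in young and -0.65 ± 0.23 in adult supernatant (difference 1.29, unadjusted p = 0.00043, edgeR adjusted p = 0.840). Aldh1l2, a mitochondrial folate enzyme (1.02), and Nostrin, which binds endothelial nitric oxide synthase (1.07), were of the same kind. Luzp1 (-0.43), Zfp804a (-0.65) and Chd5 (-0.46) had the opposite sign of difference. The GABA list had a median of -0.06 in adult supernatant beside 0.18 in young, and the neuropeptide list -0.16 beside 0.21; these differences of medians were not tested.

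No gene of 16660 passed for a difference of the DHT effect between young supernatant and the young pull-down in edgeR (361 or 2.17% at an unadjusted p below 0.05, and 0 by limma-voom). That fit had no term for the tie between the fractions of a punch, and 0 calls do not show equal effects. Side by side, the log2 fold change in the pull-down was 0.43 ± 0.34 for Tac2, 0.89 ± 0.52 for Gabrg3 and 0.40 ± 0.57 for Rtel1, on the same side as in supernatant, and -0.56 ± 0.80 for Stk10 and 0.31 ± 0.78 for Oas1c, on the other side. Cyp19a1 was also on the other side. In the pull-down it had 0 counts in 5 of 6 DHT libraries and 1 count in the sixth, against 42 and 32 counts in vehicle 3 and 4 (1.00 and 0.95 CPM) and 0 or 1 count in the other 4 vehicle libraries. Its fitted log2 fold change of -4.99 ± 1.78 there (unadjusted p = 0.0077, and 0.0053 for the difference of 6.36 from supernatant; neither passed adjustment in edgeR) depends on the prior count and has its vehicle level from those 2 libraries.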

How the data were processed

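Polyadenylated RNA was sequenced from preoptic punches after reverse transcription with the SMARTer v4 kit, as the labels' protocols state, and reads carry no strand. The authors deposited 1 table of estimated counts for 23284 genes in 48 libraries; 98.49% of its values were exactly whole, and all were rounded before testing. Per the submitters' processing notes, TopHat2 2.0.13, Bowtie2 2.2.1, HTSeq 0.6.1, Cuffdiff 2.1.1 and DESeq2 1.14.1 were used with mm10; the counting tool and annotation are not stated.

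The 12 young libraries were tested in 1 edgeR 4.0.16 fit of 23 supernatant libraries (R 4.3.3; filterByExpr, minimum count 10, minimum total 15; TMM; quasi-likelihood test, robust; Benjamini-Hochberg) with 1 mean per group and a term for late sample numbers. Effects within early and late numbers came from a fit of their group means. The comparison with the pull-down came from a fit of 46 libraries, in which the tie between supernatant and pull-down was not modelled. CPM was the count over the library total, ± is an SE for log2 fold changes and an SD for levels. In simulated counts for this contrast (16144 genes), 73 of 100 genes changed 2-fold and 58 of 100 changed 1.5-fold were recovered, and 6 of 15944 unchanged genes were called. The changed genes had a mean of at least 10 counts and the same effect in both number ranges. Each gene was drawn independently of the others, so recovery in the real libraries may differ.

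Alternatives were no late term, the 12 libraries alone, RLE size factors, no filter, a filter of 1 CPM, a replicate block, DESeq2 1.42.0, limma-voom 3.58.1 with sample weights, and leaving out each library; fits of only early or only late libraries were added after seeing the data. Named genes were up to 10 called per direction (none), the 10 of smallest p per direction with a mean of at least 1 CPM, likewise 6 within the early numbers, 3 for each difference, 14 steroid and reproductive genes, and up to 3 of smallest p per list described, without predicted genes; a few genes these rules name are not reported here. Members and lists were chosen with earlier results of these data known. Promoters are from RefSeq, GRCm38.p6, and transcript lengths from GENCODE M21.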

Additional observations from a re-analysis of the deposited data

Results flagged for a closer look

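Among 160 groups of 6 libraries checked (80 named genes, 2 groups each), 11 held a library set apart from the other 5; chance sets apart about 1 in 20 groups. Vehicle 6 was the highest of its group for Aqp4 (22.3 CPM, next 13.7), Ctss (10.3, next 5.37), Gria1 (128, next 96.2), Oprk1 (9.28, next 7.84), Scn2b (115, next 81.7) and Ssr1 (91.3, next 63.0). Vehicle 2 was the lowest for Rtel1 (5.78 CPM, next 6.99). Among DHT libraries, DHT 1 was the lowest for Mmp17 (58.0 CPM, next 75.9) and Tmsb15b2 (1.52 CPM, next 2.11), DHT 3 the highest for Moxd1 (8.38 CPM, next 5.26), and DHT 5 the highest for Steap4 (0.605 CPM, next 0.249). The log2 effect of DHT differed between early and late numbers by 1.01 for Slc5a5 and by 1.10 for Scn2b.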

How the results depend on the processing

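In the comparison of DHT with vehicle, 0 genes were called with no late term, in the 12 libraries alone, with RLE size factors, with no filter, with the 1 CPM filter, with limma-voom and without each library in turn (lowest and highest count 0 and 0), and DESeq2 called 1. Replicate numbers did not pair the samples (correlations of same-numbered deviations from -0.05 to 0.28; only number 3 correlated best with its own number), and the replicate block called 0 genes with or without the late term (1255 and 1203 at an unadjusted p below 0.05, beside 689). Within the early numbers the count of 1 became 0 in the 12 libraries alone, 193 with DESeq2, 2 with limma-voom, 39 in the 18 early libraries and 0 in the 7 alone, and ran from 0 to 260 on leaving out libraries. Within the late numbers 0 became 3 with DESeq2 and 10 in the 5 late libraries alone. The difference between early and late had 2 calls, 0 in the 12 libraries alone, 33 with DESeq2, and 0 to 6 on leaving out libraries. The cause of these changes was not tested.

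The log2 fold changes of 5 genes turned sign, with main values from -0.203 (Esr2) to 0.109 (Srd5a1). Among the alternatives that kept every library, Esr2 was as low as -0.598. Esr1 was -0.00734 with no late term, -0.0165 in the 12 libraries alone with no late term, -0.0527 with the replicate block without the late term, and -0.00428 to 0.117 on leaving out libraries. Gnrh1 was -0.0702 with the replicate block and the late term and -0.117 to 0.199 on leaving out libraries. The ranges on leaving out libraries were -0.358 to 0.00969 for Esr2, -0.0212 to 0.15 for Srd5a1 and -0.248 to 0.41 for Greb1. For the late against early numbers, 3801 calls became 3794 with RLE size factors, 3967 with the 1 CPM filter (1774 higher and 2193 lower) and 4855 with limma-voom (1901 and 2954). For genes under 1 CPM, such as Cyp19a1, depth limits what can be bounded.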

Other observations

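Several leading genes of the early comparison lie near each other on chromosome 8 (GRCm38.p6, RefSeq), a pattern noticed after the values were seen. Slc5a5, Ocel1, Gtpbp3 and Plvap fall within chr8:70882885-71511806, where 14 tested genes lie. These 4 had an unadjusted p below 0.05 in the early numbers, beside 10.6% of all genes. The window runs from the start of Slc5a5 to the end of Plvap, so its share is raised by that choice. Gtpbp3 and Plvap overlap at one end, where their reads cannot be told apart, so their values are not independent. In the early numbers the log2 fold changes of the 4 were 0.68, -0.82, -0.45 and -0.61, so they did not share a direction. Haus8, Myo9b and Use1, which lie between Slc5a5 and Ocel1, had values of 0.07, -0.10 and 0.03. In the late numbers the 4 values were -0.33, 0.57, 0.14 and 0.18, each with the opposite sign.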
